A study of Mus musculus with 24 samples.

Results

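The proteasome genes were taken as all genes whose array symbol reads Psma, Psmb, Psmc, Psmd, Psme, Psmf or Psmg followed by a digit, which gave 49 of the 19057 genes with a probe of their own. Each gene was read from the probe with the highest mean log2 value among its probes, and the 49 genes had 86 of the 45281 probes. The interferon-induced members Psmb8, Psmb9, Psmb10, Psme1 and Psme2 were set against the other 44. Psmc3ip and Psme3ip1 matched by name only and encode no proteasome part. The values came from the proximal colon of 24 male 129/SvEv IL-10 KO mice aged 3 months, with 1 Illumina MouseWG-6 array for each mouse. All 24 mice lacked interleukin-10, a cytokine that restrains inflammation in the gut, and no wild-type mouse was analysed here. The mothers ate a diet with 5000 (H) or 25 (L) IU vitamin D3 per kg while pregnant and nursing, and the pups were weaned onto the same or the opposite diet. This gave the HH, LH, HL and LL groups of 6 mice, named first by the mother's diet and then by the pup's own. The high post-weaning diet was given to HH and LH mice and the low one to HL and LL mice. The mothers of HH and HL mice ate the high diet, and those of LH and LL mice the low diet. Mice are named here by group and mother's label, and 4 of the 20 labels (10, 10B, 13 and 3B) are shared by 1 mouse on each post-weaning diet.

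The proteasome degrades proteins that carry a ubiquitin tag. Its core is a barrel of alpha rings (Psma genes) around beta rings (Psmb genes), and a regulatory particle (Psmc and Psmd genes) binds the tag, unfolds the protein and feeds it into the barrel. Interferon-gamma induces Psmb8, Psmb9 and Psmb10, which take the places of the catalytic subunits Psmb5, Psmb6 and Psmb7 in newly built cores. It also induces Psme1 and Psme2, which together form the PA28 activator, an alternative cap. Proteasomes built with these parts favour peptides that fit MHC class I molecules, and cells of the inflamed gut are a known place of their induction. Psmb9 and Psmb8 lie in the class II region of the MHC, next to the peptide transporter genes Tap1 and Tap2.

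The promoters of 4 members are shown because their genes gave the contrast described below: Psmb8, Psmb9 and Psme1 were low together in the same mice, and Psmb5 was not. Each window runs from 250 bases before to 50 after the annotated start, on the gene's strand, as given by RefSeq on build GRCm38.p6. The windows are chr17:34197945-34198244 (plus strand) for Psmb8, chr17:34187281-34187580 (minus strand) for Psmb9, chr14:55578244-55578543 (plus strand) for Psme1 and chr14:54617946-54618245 (minus strand) for Psmb5. Capitals mark letters that match GAS (TTCNNNGAA, the gamma interferon activation site), the ISRE core (GAAA, any 2 letters and GAAA again, a motif of IRF factors) or the core of the antioxidant response element (TGACNNNGC, a motif of NFE2L1 and NFE2L2), read on both strands.
Psmb8: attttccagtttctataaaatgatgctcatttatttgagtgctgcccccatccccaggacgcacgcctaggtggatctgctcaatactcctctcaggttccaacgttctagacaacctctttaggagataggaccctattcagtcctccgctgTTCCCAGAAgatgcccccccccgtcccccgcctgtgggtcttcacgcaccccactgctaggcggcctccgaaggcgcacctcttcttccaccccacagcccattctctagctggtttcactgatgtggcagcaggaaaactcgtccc
Psmb9: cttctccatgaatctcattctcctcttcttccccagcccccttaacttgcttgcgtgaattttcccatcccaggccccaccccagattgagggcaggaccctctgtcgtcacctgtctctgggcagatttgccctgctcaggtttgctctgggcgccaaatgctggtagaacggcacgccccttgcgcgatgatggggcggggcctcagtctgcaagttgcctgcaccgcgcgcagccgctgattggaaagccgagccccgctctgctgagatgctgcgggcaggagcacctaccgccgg
Psme1: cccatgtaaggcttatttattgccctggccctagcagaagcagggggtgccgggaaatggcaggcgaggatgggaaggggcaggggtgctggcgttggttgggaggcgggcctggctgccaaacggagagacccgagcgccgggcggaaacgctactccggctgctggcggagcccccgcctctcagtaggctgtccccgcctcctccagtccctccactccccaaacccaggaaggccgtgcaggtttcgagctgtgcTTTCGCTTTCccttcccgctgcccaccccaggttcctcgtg
Psmb5: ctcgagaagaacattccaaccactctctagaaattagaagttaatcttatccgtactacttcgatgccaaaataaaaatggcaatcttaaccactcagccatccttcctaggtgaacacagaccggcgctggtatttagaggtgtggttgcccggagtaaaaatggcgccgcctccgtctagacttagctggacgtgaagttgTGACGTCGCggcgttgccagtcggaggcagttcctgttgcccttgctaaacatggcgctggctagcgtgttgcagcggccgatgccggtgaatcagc
The Psmb8 window held 1 GAS match, which began 97 bases before the start. The Psme1 window held 1 ISRE core on its minus strand, 9 bases after the start, and the Psmb9 window held none of the 3 motifs. The Psmb5 window held 1 antioxidant response element core, 47 bases before the start. Windows were given for 41 of the 49 members. Among the 5 interferon-induced members 1 window held GAS and 1 the ISRE core, against 2 and 4 of the 36 other members with a window. The antioxidant response element core was in 0 of the 5 and in 6 of the 36, which were Psmb5, Psmb6, Psmc6, Psmd9, Psmd12 and Psme4. Over all 27025 genes with a window, 9.55% held GAS, 3.99% the ISRE core and 14.0% the antioxidant response element core. A match is only a run of letters, and a window without one says nothing about the factor.

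On the arrays as a whole, mean raw intensity was 245 to 637 and 21.2% to 37.0% of probes were detected (23.5% to 37.0% in HH and LH mice, 21.2% to 36.3% in HL and LL mice). The mean log2 value of the 5 colonocyte markers was 11.30 to 12.68. Exocrine pancreas markers reached 7.16 in the highest HH or LH mouse and 11.00 in the highest HL or LL mouse, and their part in the results was not tested. HH 10B and HL 10B stood apart for several members, so results that rest on them are given with and without them. The number of arrays limits the precision, and the p-values measure the spread between these mice.

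A probe was called detected on an array where its detection score was above 0.99. Of the 49 members, 36 were detected on all 24 arrays, 5 on 12 to 23 arrays, 2 on 1 to 11 arrays and 6 on 0 arrays. The 36 included all 5 interferon-induced members. The 6 were Psma1, Psma3, Psma8, Psmb11, Psmd3 and Psmg4, whose values lay near 7.09, the median log2 value of undetected probes. Psma6 and Psmc6, each detected on 1 array, lay there too. Psmb11 encodes the beta subunit of the thymus and Psma8 the alpha subunit of the testis. Psma1, Psma3 and Psma6 encode constitutive parts of the core, and Psmc6 and Psmd3 parts of the regulatory particle. The probes of all of these are therefore taken as no measure of the genes here. The filter on expressed probes kept 45 of the 49 members in each comparison.

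Psmb8, the interferon-induced chymotrypsin-like subunit, had log2 intensities with a lowest, median and highest value of 10.93, 12.27 and 12.40 in HH, 11.38, 12.02 and 12.22 in LH, 10.99, 12.24 and 12.59 in HL and 11.63, 11.79 and 12.43 in LL mice. Psmb9, another of these catalytic subunits, had 11.28, 12.15 and 12.55 in HH, 11.94, 12.22 and 12.44 in LH, 11.21, 12.14 and 12.37 in HL and 11.87, 12.30 and 12.43 in LL mice. For Psmb10, the trypsin-like one, the values were 11.12, 12.13 and 12.39 in HH, 11.66, 11.90 and 12.15 in LH, 11.01, 12.25 and 12.48 in HL and 11.90, 12.07 and 12.26 in LL mice. In each of these 3 genes the groups overlapped widely, and the lowest values stood in 1 HH and 1 HL mouse. Psme1, the alpha subunit of PA28, had 11.98, 12.52 and 12.70 in HH, 12.10, 12.45 and 12.54 in LH, 11.96, 12.43 and 12.76 in HL and 12.25, 12.44 and 12.61 in LL mice. Psme2, its beta subunit, had 9.23, 9.27 and 9.78 in HH, 9.33, 9.55 and 9.66 in LH, 9.20, 9.36 and 9.55 in HL and 9.10, 9.40 and 9.80 in LL mice. The groups overlapped for both subunits of PA28 as well. Mouse has a second gene, Psme2b, that is nearly identical to Psme2, so it is uncertain which of them the Psme2 probe read. In whole tissue, fewer cells of a type and less RNA per cell cannot be told apart.

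**Figure D1:**
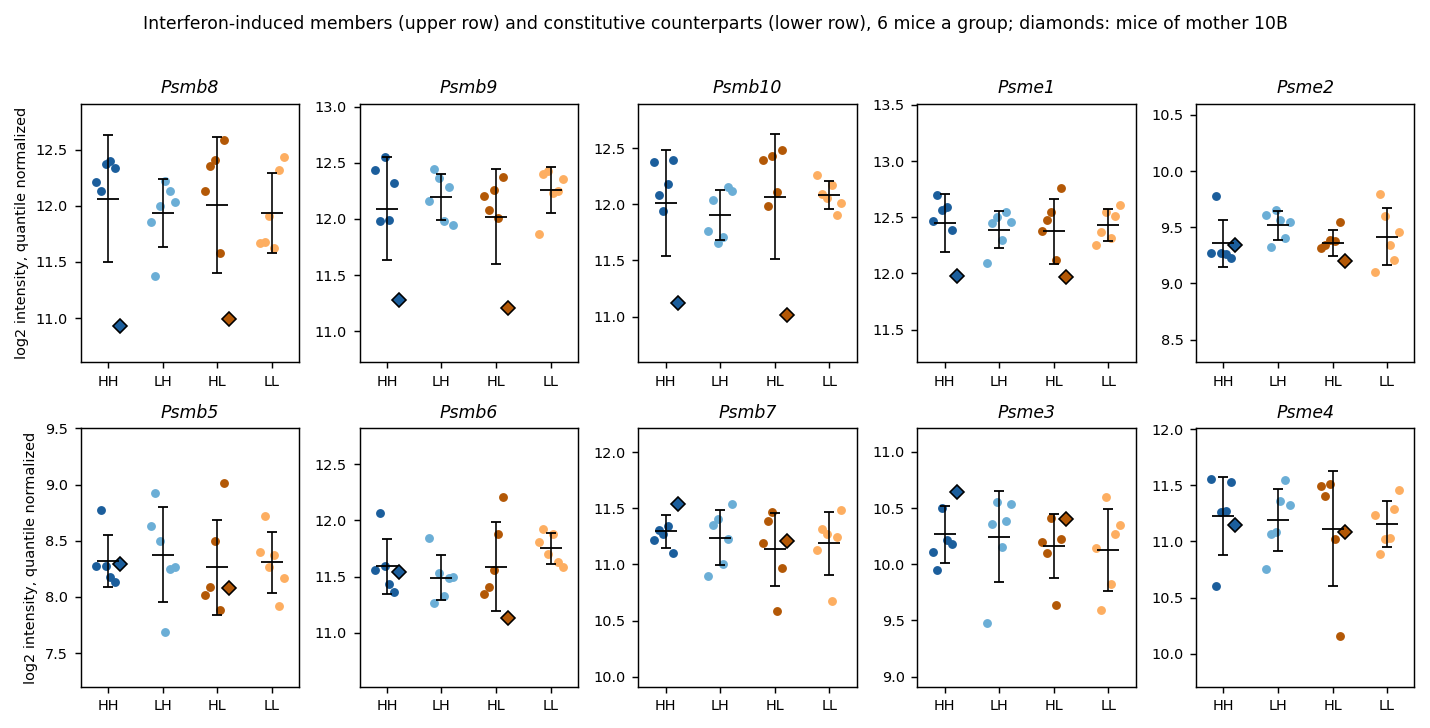
Quantile normalized log2 intensity (vertical axes, each spanning the same log2 range) of the 5 interferon-induced members (upper row) and of Psmb5, Psmb6, Psmb7, Psme3 and Psme4 (lower row) in HH, LH, HL and LL mice. Points are mice, bars are the mean ± SD of 6 mice, and the black-edged diamonds are the mice HH 10B and HL 10B, which were the lowest 2 of 24 for Psmb8, Psmb9, Psmb10 and Psme1 and not for the other genes drawn.

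None of the 5 interferon-induced members passed the test for a difference by post-weaning diet. Psmb8 averaged 12.00 ± 0.44 on the high diet (HH and LH) and 11.97 ± 0.48 on the low diet (HL and LL; SD over 12 mice on each), a log2 difference (high minus low) of 0.03 with a 95% interval of -0.35 to 0.41. The difference was 0.01 (-0.27 to 0.28) for Psmb9, -0.12 (-0.42 to 0.19) for Psmb10, 0.02 (-0.16 to 0.20) for Psme1 and 0.05 (-0.10 to 0.20) for Psme2. The smallest limma p of the 5 was 0.447 unadjusted. Their median difference was 0.02, with 4 above 0 and 1 below, beside a median of 0.03 over the 40 others, with 25 above 0 and 15 below. Over all 31298 probes tested the median was 0.0014 and 50.8% were higher. Over the 5547 genes detected on all arrays the median was -0.02 and 43.1% were higher. Of all 45 members tested, 0 passed limma's test at an adjusted p under 0.05, beside 0% of all probes tested. At an unadjusted p under 0.05 it was 0 of 45, beside 4.22% of all probes tested. This count was 3 of 45 (6.67%) without LH 6A, beside 6.55% of all probes, and also 3 with detected probes averaged, beside 4.23%, and it was 0 to 2 with any other single mouse left out.

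By pre-weaning diet, too, 0 of the 5 interferon-induced members passed, with 2 higher and 3 lower where the mother had eaten the high diet, and a median difference of -0.0006. The differences were 0.10 (-0.28 to 0.48) for Psmb8, -0.17 (-0.44 to 0.11) for Psmb9, 0.05 (-0.26 to 0.36) for Psmb10, -0.0006 (-0.18 to 0.18) for Psme1 and -0.11 (-0.26 to 0.04) for Psme2. The spread of Psmb8 was wider in HH and HL mice (SD 0.56, n = 12) than in LH and LL mice (SD 0.31, n = 12), and the SD of Psmb10 was 0.49 in HH and HL mice and 0.19 in LH and LL mice. The second probe of Psmb8 read -0.11 where the first read 0.10, and that of Psmb10 read -0.02. All intervals and p-values by pre-weaning diet took the mice as independent unless a block is named. That diet was eaten by the mother, so mice that share a mother's label also shared it. Both low mice named above belonged to HH and HL. Without them, Psmb8 differed by 0.31 (limma, unadjusted p = 0.0213, adjusted p = 0.999) and Psmb10 by 0.24 (unadjusted p = 0.0062, adjusted p = 0.999). These 2 mice were left out after their values were seen and both had mothers on the high diet, so leaving them out had to move the differences up for the genes in which they were lowest. Over all members, 0 of 45 passed the adjusted threshold, beside 0% of all probes, and 1 of 45 (2.22%) an unadjusted p under 0.05, beside 2.71%. Without the 2 mice it was 3 of 45 (6.67%), beside 3.05%. It was also 3 without HH 10 alone, beside 3.31%, and without HL 2A alone, beside 4.78%.

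That 1 member was Psmb1, a noncatalytic subunit of the beta rings. Its lowest, median and highest values were 11.67, 11.87 and 12.29 in HH and HL mice and 11.77, 12.05 and 12.46 in LH and LL mice. The log2 difference was -0.21 (standard error 0.08; limma, unadjusted p = 0.0136, adjusted p = 0.999), and 1 of the 12 HH and HL mice lay above the mean of the LH and LL mice. The groups still overlapped over most of their range. Under median scaling without quantile normalization the difference was -0.03. The others with the smallest p below 0 were Psmd7 (-0.16) and Psmd4 (-0.08), parts of the regulatory particle, and both other detected probes of Psmd7 had differences above 0. Those above 0 were Psmg2 (0.09) and Psmd5 (0.07), assembly chaperones, and the ATPase gene Psmc5 (0.08).

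The catalytic subunits that the interferon-induced ones replace had small differences by diet. Psmb5 averaged 8.35 ± 0.32 on the high post-weaning diet and 8.29 ± 0.34 on the low one (SD over 12 mice on each). Psmb6 averaged 11.54 ± 0.22 on the high diet and 11.67 ± 0.29 on the low one, and Psmb7 averaged 11.27 ± 0.20 on the high diet and 11.16 ± 0.29 on the low one. Their log2 differences by post-weaning diet were 0.06 (-0.21 to 0.34), -0.13 (-0.34 to 0.08) and 0.11 (-0.10 to 0.31). Psme3, which encodes the nuclear activator PA28 gamma, differed by 0.11 (-0.16 to 0.38), and Psme4, which encodes the activator PA200, by 0.08 (-0.21 to 0.36). No value of these 5 passed limma's test. By pre-weaning diet their differences lay between -0.05 and 0.03.

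Other parts of the particle held larger differences by post-weaning diet, with none past the test, and those above 0 with the smallest p are given first. Psma4, an alpha ring subunit, had lowest, median and highest values of 11.41, 12.22 and 12.33 in HH and LH mice and 11.20, 12.08 and 12.32 in HL and LL mice. Its difference was 0.25 (-0.05 to 0.55; limma, unadjusted p = 0.0938, adjusted p = 0.944), and in 11 of 12 high-diet mice the value exceeded the low-diet mean. The groups overlapped, and the SD was 0.25 on the high diet and 0.44 on the low one. Psmd14, the deubiquitinase of the lid, averaged 9.82 ± 0.41 on the high diet and 9.56 ± 0.40 on the low one (SD over 12 mice on each), with a difference of 0.25 (-0.07 to 0.58), and its second probe differed by 0.33 (limma, unadjusted p = 0.0363, adjusted p = 0.944). Psmd6, another lid subunit, differed by 0.17 (-0.02 to 0.35; limma, unadjusted p = 0.0824). Among the brightest probes, the differences farthest below 0 were those of the lid gene Psmd13, at -0.20 (-0.50 to 0.09; limma, unadjusted p = 0.171), and of the assembly chaperone Psmg3, at -0.13 (-0.43 to 0.16). Among the brightest probes with a difference below 0, that of Psme3ip1 had the smallest p, at -0.12 (limma, unadjusted p = 0.0584), followed by those of Psma6 and Psmb11, at -0.06 and -0.09 near background. The dimmest of 3 probes of Psmd7, a lid subunit, detected on 22 arrays, differed by -0.12 (limma, unadjusted p = 0.0379, adjusted p = 0.944), and the other 2 by -0.09 and 0.14.

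Differences were also read within the 4 pairs of mice that share a mother's label. Psma4 was higher in the mouse on the high diet in each pair, by 0.61 (label 10), 0.09 (10B), 0.88 (13) and 0.50 (3B). Psmd1, the large scaffold of the base, was higher there by 0.56, 0.08, 0.93 and 0.48 and the ATPase gene Psmc1 by 0.26, 0.31, 0.16 and 0.39 in the same order. With mother's label as a fixed block over these 8 mice, 8 of 45 members (17.8%) had an unadjusted p under 0.05 in limma, beside 9.44% of all probes, and 0 passed the adjusted threshold (Psma4, adjusted p = 0.485). With the label as a random block over all 24 mice, 1 of 45 (2.22%) had an unadjusted p under 0.05, beside 5.51% of all probes, and this was Psme3ip1. The 8 in the 4 pairs were Psma4, Psmb7, Psmc1, Psmd1, Psmd6, Psmd12 and Psmd14, all higher on the high diet, and Psme3ip1, which was lower. Psmb8 had no such order, with differences of -0.45, -0.06, 0.38 and -0.30 in the same pairs.

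No member passed the test for the interaction of both diets. It was fitted as the post-weaning difference in mice of high-diet mothers minus that in mice of low-diet mothers. Of 45 members, 33 had an interaction above 0 and 12 below, with a median of 0.07. Over all 37654 probes tested 49.6% were above 0, with a median of -0.0009, and over the 5547 genes detected on all arrays 53.6% were. Of the 45, 0 had an unadjusted p under 0.05, beside 2.94% of all probes tested, and the second probe of the chaperone Psmd10 was at 0.35 (limma, unadjusted p = 0.0128, adjusted p = 0.9999) where the first was at 0.14. The interferon-induced members lay between -0.10 (Psme2) and 0.13 (Psmb9). The smallest p-values belonged to Psmc6 (0.13), Psma2 (0.18) and Psmd6 (0.24) above 0 and to Psme3ip1 (-0.15), Psma8 (-0.10) and Psmc4 (-0.18) below, and the probes of Psmc6 and Psma8 lay near background.

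**Figure D2:**
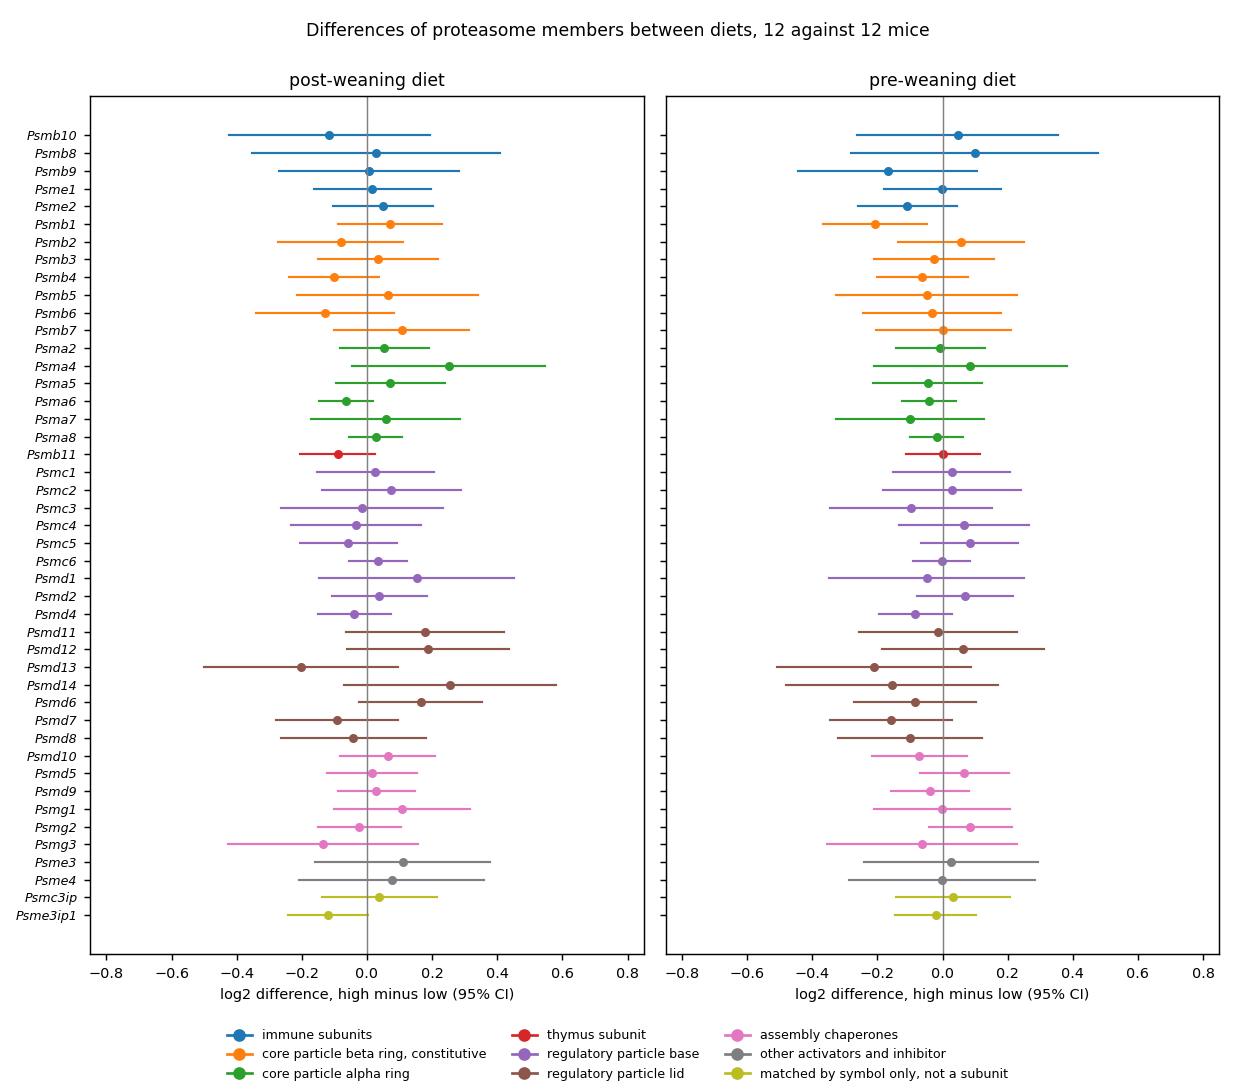
Log2 difference between diets (horizontal axes, high minus low, with bars for the 95% interval) of the 45 members tested, ordered and coloured by role, for the post-weaning diet (left) and the pre-weaning diet (right), 12 against 12 mice. All 45 intervals hold 0 for the post-weaning diet, and only that of Psmb1 lies off 0 for the pre-weaning diet. Mice that share a mother's label were taken as independent.

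By role, post-weaning differences were above 0 in 5 of 6 tested alpha ring genes (median 0.06), 4 of 7 constitutive beta ring genes (0.03), 5 of 9 genes of the base (0.03), 4 of 7 of the lid (0.17) and 4 of 6 assembly chaperones (0.02). By pre-weaning diet they were below 0 in 5 of 6 alpha ring genes (median -0.03), 5 of 7 beta ring genes (-0.03), 4 of 9 genes of the base (0.03), 6 of 7 of the lid (-0.10) and 4 of 6 chaperones (-0.02). The alpha ring counts include Psma6 and Psma8, and those of the base Psmc6, whose probes near background are no measure of the genes. Psma8 and Psmc6 were above 0 by post-weaning diet, and all of these were below 0 by pre-weaning diet. Over all probes tested, 50.8% were above 0 by post-weaning diet and 51.8% by pre-weaning diet. Of the 5547 genes detected on all arrays, 43.1% were above 0 by post-weaning diet and 2776 below 0 by pre-weaning diet.

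Variation between mice was wide for Psmb8 and Psmb10. The residual SD of a gene, its spread around the 4 group means on the log2 scale, was 0.48 for Psmb8, the highest of the 36 members detected on all arrays. It was 0.39 for Psmb10, 0.34 for Psmb9, 0.22 for Psme1 and 0.19 for Psme2. The median was 0.34 over the 5, beside 0.26 over the 31 others and 0.27 over 5547 genes detected on all arrays. Without HH 10B and HL 10B, described next, it was 0.19 over the 5 and 0.25 over the 31, so the wider spread of the 5 rests on these 2 mice. Over all 24 mice, Psmd14 (0.41) came after Psmb8 and before Psmb10, and the lowest were those of Psmd4, the ubiquitin receptor (0.13), Psme3ip1 (0.15) and Psmg2 (0.15).

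The mice HH 10B and HL 10B, which share a mother's label and had opposite post-weaning diets, held the lowest 2 of 24 values of 4 interferon-induced members. Psmb8 was at 10.93 in HH 10B and 10.99 in HL 10B, and the lowest of the other 22 mice was at 11.38. Psmb9 was at 11.28 and 11.21 in these mice, against 11.87 or more in the others. Psmb10 was at 11.12 and 11.01, against 11.66 or more. Psme1 was at 11.98 and 11.96, against 12.10 or more, a narrower gap. Psme2 did not follow, at 9.34 and 9.20, which placed these mice 11 and 2 from the bottom of 24. Other probes of 3 of these genes ranked the mice alike: the second probe of Psmb8 read 7.85 and 8.13, against 8.63 or more, that of Psmb10 read 11.17 and 11.10, against 11.37 or more, and that of Psme1 read 10.53 and 10.54, against 10.61 or more. These mice were also the lowest 2 for the same 4 genes with neqc and after a straight line on the share of detected probes was removed, while under median scaling they were the lowest 2 for Psmb8 and Psmb9 only. These mice were singled out after their values were seen, so no test was made of them.

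Both mice were the lowest 2 in 4 of the 5 interferon-induced members and in 2 of the 31 others detected on all arrays, beside 206 of the 5547 genes detected on all arrays (3.71%). The 2 others were Psmd7 (9.90 in HH 10B and 10.08 in HL 10B, against 10.22 or more) and Psmd8 (7.76 and 7.79, against 7.92 or more), both of the lid. The constitutive counterparts were not at the bottom in both mice. Psmb5 was at 8.29 and 8.08, within 7.69 to 9.01 over all mice. Psmb6 was at 11.54 and 11.13, against 11.26 or more in the others, so HL 10B was the lowest of 24 and HH 10B was 11 from the bottom. Psmb7 was at 11.54 and 11.21, and Psme3 at 10.64 and 10.40, with HH 10B the highest of 24 for each. The dimmest of 4 Psmb7 probes went the other way, at 9.15 and 8.99, against 9.34 or more in the others, and ran against the brightest one over the 24 mice (r = -0.57). None of the other 3 shared labels (10, 13 and 3B) held the lowest 2 values of any interferon-induced member. HH 10 and HL 10 held the highest 2 values of 1 of the 5, Psme1 (12.70 and 12.76). Of the 31 others, label 10 held the lowest 2 values for 1 and the highest 2 for 2, and label 3B the highest 2 for 1.

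Some genes outside the family were also low in these mice. Of a list of class I antigen processing genes, 11 were detected on all arrays, and both mice were the lowest 2 for 3 of them, beside 3.71% of the 5547 genes. The 3 were the peptide transporter gene Tap2, the class I heavy chain H2-K1 and Nlrc5, the transactivator of class I genes. The list did not move as one. Tap1 was 1 and 3 from the bottom, H2-T23 1 and 5, Tapbpl 6 and 1, and H2-M3 5 and 3. B2m was 10 and 5, H2-D1 13 and 5, Pdia3 21 and 12, and Calr 21 and 22. H2-K1 was at 11.66 in HH 10B and 11.62 in HL 10B, against 11.82 or more in the others. Both were the lowest 2 for 0 of 6 interferon-gamma signal genes and 0 of 7 genes of proteasome control and ubiquitin supply. The mean log2 value of the 6 measured leukocyte markers placed these mice 2 and 3 from the bottom of 24 (8.53 and 8.55, within 8.18 to 9.30). The list did not move as one: the myeloid lysozyme gene Lyz2 was at 11.71 and 11.60, which placed the mice 3 and 2 from the bottom, and the T cell receptor subunit gene Cd3e at 8.22 and 8.05 (4 and 1), while the pan-leukocyte gene Ptprc was at 7.62 and 7.51 (20 and 15), and Itgam, not detected on any array, was 19 and 12 from the bottom. The mean of the 4 goblet cell markers placed these mice at the top (12.45 and 12.46, against 12.40 or less). Clca1 was at 14.03 in both, a tied value that no other mouse exceeded. Muc2 was only 19 and 21 from the bottom, Tff3 16 and 18, and Fcgbp, detected on 1 array, 18 and 11. The mean of the smooth muscle markers was high as well (11.68 and 11.92, within 10.63 to 11.98), with Des 12 and 22 from the bottom. The mean of the 5 colonocyte markers was at 12.62 and 12.52, 22 and 21 from the bottom of 24, and for Krt8, a keratin of the epithelium, these mice were the highest 2 (14.88 and 14.76). Slc26a3 was 23 and 22 from the bottom and Car1 19 and 24, while Krt20 was 14 and 8 and Vil1 13 and 14. The part of cell makeup in the low values was not tested.

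Relations between the members were then read over mice. A family of 50 relations was tested by permutation over the 24 mice, with Benjamini-Hochberg adjustment over the 50. The permutation took the 24 mice as independent and did not use mother's label. Some mice share a label, HH 10B and HL 10B among them, so the permutation p-values hold only if such mice vary independently. Whether they do was not tested for these relations. Psmb8 and Psme1 gave a Pearson's r of 0.80 (adjusted p = 0.0005) and a Spearman's rho of 0.76 (adjusted p = 0.002). Without HH 10B and HL 10B, which were also the 2 mice farthest from the Psmb8 median, r was 0.63 and rho 0.69 (permutation test, adjusted p = 0.045 for r and 0.0275 for rho). The other 5 pairs among Psmb8, Psmb9, Psmb10 and Psme1 had r from 0.62 to 0.69 (adjusted p of 0.0107 to 0.0136) but rho from 0.20 to 0.47 (adjusted p of 0.088 to 0.511). Psmb8 and Psmb9, for example, had r = 0.62 and rho = 0.30 over 24 mice, and r = 0.10 and rho = 0.09 without the 2 mice. The median r of these 6 pairs was 0.66 over 24 mice and 0.21 over 22. Of the 10 pairs of all 5 members, 6 passed over 24 mice and 1 over 22. Leaving out either mouse alone also gave 1, so the relations other than that of Psmb8 and Psme1 rest on HH 10B and HL 10B. The relation of Psmb8 and Psme1 has limits too. Without these mice the brightest and second probes of Psmb8 had r = -0.17. With the share of detected probes, r was 0.42 for Psmb8 and 0.45 for Psme1 (permutation test, adjusted p = 0.115 and 0.0862). Without these mice it was 0.52 and 0.53.

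**Figure D3:**
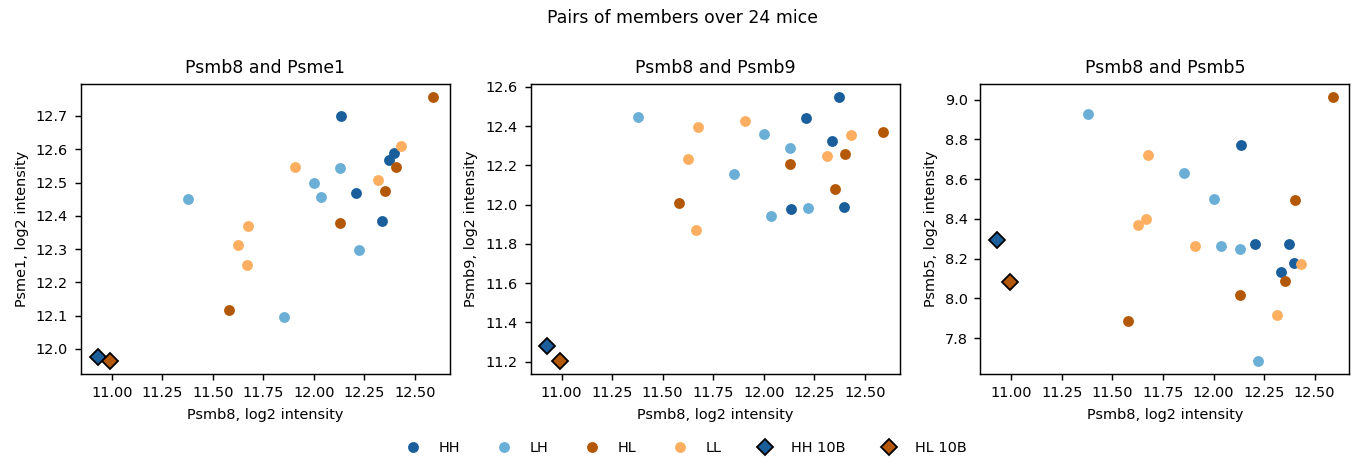
Log2 intensity of Psme1 (left), Psmb9 (middle) and Psmb5 (right) against that of Psmb8 in 24 mice, coloured by group, with diamonds for HH 10B and HL 10B. Psme1 followed Psmb8 with and without the diamonds (r = 0.80 and 0.63), Psmb9 with them only (0.62 and 0.10), and Psmb5 in neither case (-0.06 and -0.21).

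No relation of Psme2 with the other 4 passed, with r from -0.01 (Psmb10) to 0.26 (Psme1) and adjusted p of 0.376 to 0.956. It was inversely related to Krt8 (r = -0.59, adjusted p = 0.0136; rho = -0.52, adjusted p = 0.088; r = -0.45 without the 2 mice farthest from the Psme2 median), and to the share of detected probes on the array (r = -0.53, adjusted p = 0.0306; rho = -0.51, adjusted p = 0.088; -0.45 without the 2 mice). Under median scaling both r were above 0 (0.74 and 0.81). Without HH 10B and HL 10B the adjusted p were 0.0644 and 0.0669. Over all members its highest r was that with Psma7, an alpha ring subunit (0.80), as a description. No relation between an interferon-induced catalytic subunit and the one it replaces passed. The r was -0.06 for Psmb8 and Psmb5 (rho = -0.12, adjusted p = 0.8 for r), 0.25 for Psmb9 and Psmb6 (rho = 0.16, adjusted p = 0.39 for r) and -0.18 for Psmb10 and Psmb7 (rho = -0.24, adjusted p = 0.475 for r). Without the 2 mice farthest from the median, these r were -0.21, -0.05 and -0.05. Psme1 and Psme3, the subunits of different activators, had r = 0.24 over 24 mice (rho = 0.26, adjusted p = 0.39 for r and 0.375 for rho) and r = 0.61 without HH 10B and HL 10B (adjusted p = 0.045). Irf1, a transcription factor that interferon induces, passed for Psmb8 (r = 0.55, rho = 0.46) and Psmb10 (r = 0.55, rho = 0.47), at adjusted p of 0.0256 and 0.0225 for r and 0.088 for both rho, and r was 0.38 and 0.36 without the 2 mice. With Psme2, Irf1 ran the other way, at r = -0.41 over 24 mice (rho = -0.37; permutation test, adjusted p = 0.115 for r and 0.215 for rho). Over the 22 mice without HH 10B and HL 10B, r was -0.62 and rho -0.59 (permutation test, adjusted p = 0.045 for both). This relation and that of Psme1 with Psme3 fell under the threshold only without these 2 mice. The mice were left out after their values were seen, so neither is read as a passed test. Under median scaling the r of Irf1 and Psme2 was 0.86. Tap1 passed for its neighbour Psmb9 (r = 0.64, adjusted p = 0.0134; rho = 0.47, adjusted p = 0.088) and for Psmb10 (r = 0.58, adjusted p = 0.0197; rho = 0.36, adjusted p = 0.219), with r of 0.35 and 0.24 without the 2 mice. B2m, Ptprc and Cd3g passed for 0 of the 5.

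Among the other members the relations ran in both directions. Over the 465 pairs of the 31 others the median r was 0.11, and it was 0.07 without HH 10B and HL 10B. The highest r over 24 mice was 0.85, for Psma4 with Psmd1 and also with Psmd12, followed by Psmb7 with Psmd1 and Psmd1 with Psmd11 (0.81 each). The lowest were those of Psme4 with the chaperone Psmg3 and of Psmd8 with Psme3 (-0.80 each). These are descriptions over 24 arrays that share their processing, with no test. The median r within the alpha ring was 0.25, within the constitutive beta ring 0.14, within the base 0.30 and within the lid 0.13. The brightest and second probes of one gene had r of 0.88 for Psma7, 0.89 for Psmd1 and 0.84 for Psmb6, but -0.26 for Psmd7. For Psmb8 this r was 0.46 over 24 mice and -0.17 without the 2 mice.

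**Figure D4:**
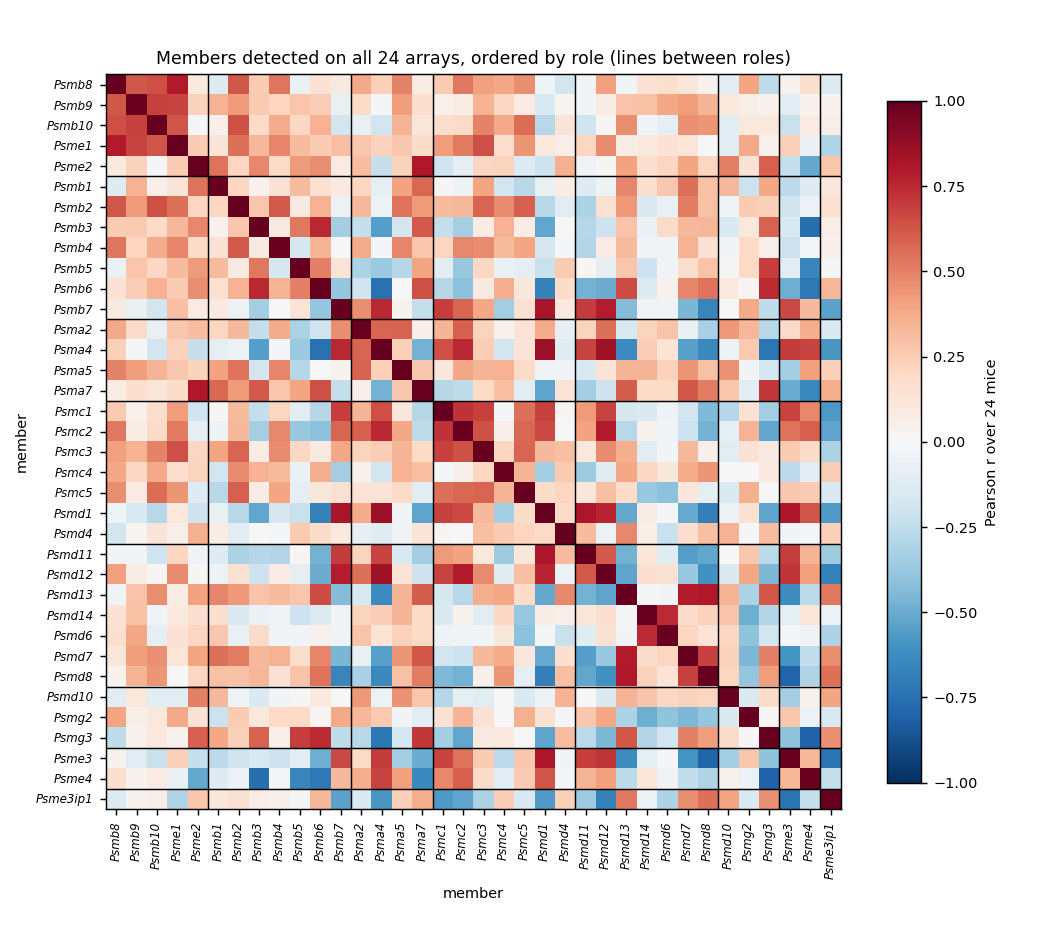
Pearson's r over 24 mice (colour scale from -1 to 1) between the 36 members detected on all arrays, ordered by role with lines between roles. The first 4 members (Psmb8, Psmb9, Psmb10 and Psme1) form a block with r of 0.62 to 0.80 that Psme2 does not share, and Psma4, Psmb7, Psmd1, Psmd11, Psmd12 and Psme3 run together against Psmb6, Psmd8 and Psmd13.

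The genes most like each interferon-induced member were sought among 5511 genes outside the family that were detected on all arrays, by Pearson's r of values centred on the group means. The list is a description. Beside each r stands a second one, of values that were not centred, without HH 10B and HL 10B. The r in a pair therefore differ in centring as well as in mice. Genes among the top 10 of more than 1 member were Serpina3n, an acute-phase serpin (0.88 and 0.84 with Psmb8), the chitinase-like gene Chil1 (0.83 and 0.59 with Psmb8), the progranulin gene Grn (0.83 and 0.70 with Psmb8), Upp1, a uridine phosphorylase (0.86 and 0.45 with Psmb10), and the adhesion molecule Icam1 (0.82 and 0.71 with Psme1). Psmb8 also had the formyl peptide receptor Fpr2 (0.86 and 0.70) and Mmp10 (0.86 and 0.64). Psmb9 had the class II gene H2-Eb1 first (0.83 and 0.70), Psmb10 had the adaptor Myd88 (0.86 and 0.76) and Psme1 had the siderophore-binding Lcn2 (0.83 and 0.63). The list of Psme2 shared no gene with the others and was led by the RNA polymerase subunit Polr2h (0.82 and 0.79) and the mitochondrial ribosomal gene Mrpl11 (0.82 and 0.80).

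None of the genes around the proteasome passed the test by diet. Of 13 tested genes of class I antigen processing, 10 had a post-weaning difference above 0 and 3 below, with a median of 0.07 and with Pdia3 (0.32) and Tap2 (-0.08) having the smallest p on each side. Of 9 tested interferon-gamma signal genes, 6 were higher and 3 lower (median 0.06), and the feedback inhibitor Socs1 was lower by -0.20 (limma, unadjusted p = 0.0426, adjusted p = 0.944) and Irf9 was at 0.11. Of 9 tested genes of proteasome control and ubiquitin supply, 7 were higher and 2 lower (median 0.04), and Usp14, a deubiquitinase of the regulatory particle, was at 0.28 (unadjusted p = 0.0394, adjusted p = 0.944) and Vcp at -0.13. An unadjusted p under 0.05 by post-weaning diet was held by 0 of 13, 1 of 9 and 1 of 9 genes in these lists. Over all probes tested this share was 4.22%, and 50.8% were higher. Of the 5547 genes detected on all arrays, 43.1% were higher. By pre-weaning diet the counts higher and lower were 7 and 6, 6 and 3, and 6 and 3 in the same lists, beside 51.8% of all probes higher. Of these genes 0 had an unadjusted p under 0.05, beside 2.71% of all probes. The smallest p-values there were those of Tap2 (0.15) and Tapbp (-0.11), of Jak2 (0.16) and Ifngr2 (-0.37), and of Ubqln1 (0.13) and Sem1 (-0.10). For the interaction, 0 of the genes in these lists had an unadjusted p under 0.05, beside 2.94% of all probes. Erap1 (0.17) and Tap1 (-0.30), Jak1 (0.41) and Irf9 (-0.11), and Uchl5 (0.23) and Ngly1 (-0.10) had the smallest p on each side.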

How the data were processed

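Labelled RNA of each of the 24 mice was hybridized to 1 Illumina MouseWG-6 v2 array. The authors deposited probe intensity without normalization, a detection score per probe (a fraction of 0 to 1, high for probes above background) and log2 values, which their methods say were quantile normalized in GeneSpring. Quantile normalization of the deposited intensity gave the log2 values back within 0.000415. It removes differences in total signal between arrays. Members were read from the deposited log2 values with Python 3.11.15, pandas 2.3.3 and scipy 1.17.1. Probes above the 20th percentile of the array in 80% of the arrays of either group compared were tested with limma 3.58.1 in R 4.3.3, as contrasts of the 4 group means with Benjamini-Hochberg adjustment over all probes tested and a threshold of 0.05. Relations were tested with 100000 permutations over mice, which did not use mother's label.

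Members, lists and alternatives were chosen with earlier results of these data known. Genes named are the 5 interferon-induced members and 5 counterparts, the 3 members with the smallest p in each direction per comparison, dim members, members whose probes differ in sign, those with extreme spread, the 10 most alike genes, and 1 gene per list and direction. The mice HH 10B and HL 10B, the pair values and the extreme correlations were chosen after values were seen. Mother's label, taken from the sample names, pairs 4 mice on the high post-weaning diet with 4 on the low one. The consensus correlation within labels was 0.139. Alternatives were median scaling, neqc, other filters, averaged probes, the detected share as covariate, mother's label as a replicate block, the methods' t-test and leaving out mice. The code was tested on simulated data.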

Additional observations from a re-analysis of the deposited data

Results flagged for a closer look

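Within the 4 groups of 6 mice, 26 named genes were searched for a single mouse whose gap to its nearest neighbour took more than 0.625 of the group's range. Of 104 groups, 19 held such a mouse, and chance marks about 1 in 20 groups. Mice of mother 10B stood low for Psmb8 (10.93 in HH 10B, nearest 12.14), Psmb9 (11.21 in HL 10B, nearest 12.01) and Psmb10 (11.12 in HH 10B, nearest 11.94, and 11.01 in HL 10B, nearest 11.98). The mouse LL 6 stood low for Psmb9, at 11.87 with the nearest at 12.23.

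The mouse HH 10 stood high for Psme2 (9.78, nearest 9.34), Psmb5 (8.77, nearest 8.29), Psmb6 (12.06, nearest 11.60) and Psmb1 (12.29, nearest 11.96), and low for Psma4 (11.89, nearest 12.21). Low values stood apart in LH 6A for Psme3 (9.48, nearest 10.16) and Psma4 (11.41, nearest 12.09), in HL 10 for Psme4 (10.16, nearest 11.02) and in LH 3B for Psma2 (12.56, nearest 12.85). Psme3ip1 was high in HL 2A, at 9.90 with the nearest at 9.62. Near background, Psma6 was at 6.89 in HH 5, Psma8 at 7.07 in LL 6, and Psmb11 at 7.25 in HH 10B and 7.60 in HL 2A. No cause was tested for any of these values.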

How the results depend on the processing

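Of 2484 values recomputed under an alternative, 2243 were marked as unchanged. For differences of single genes and for tested relations this meant the same direction and side of the threshold. Counts, spreads, median differences and r without the 2 farthest arrays were marked by size of change only. A median difference of the 5 counted as unchanged within 0.26, the pooled SD of their mean within groups, so its sign could change. For the changed values given below, the cause was not tested. Signal over background limits what can be read, and members near background have only a bound.

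Under median scaling, which keeps differences in overall brightness between arrays, 10 of 10 pairs of interferon-induced members passed and the median residual SD was 0.69 for them and 0.55 for the 31 others. The median interaction of the 5 was 0.63, and single interactions were 0.26 (Psmb5), 0.37 (Psmc4), 0.41 (Psme2), 0.54 (Psme3) and 0.35 (Psme3ip1). Pre-weaning differences were 0.14 (Psmb5), 0.16 (Psmb6), 0.10 (Psmd4), 0.050 (Psmd7), 0.17 (Psme1), 0.10 (Psme2) and 0.20 (Psme4). The r was 0.76 for Psmb10 and Psmb7, 0.84 for Psmb10 and Psme2, 0.64 for Psmb8 and Psmb5, 0.74 for Psme2 and Krt8 and 0.81 for Psme2 and the detected share.

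With the detected share as covariate, interactions were 0.043 (Psmb5), -0.086 (Psmb8) and -0.072 (Psme4), post-weaning differences -0.018 (Psmb8), -0.0054 (Psmb9) and -0.0064 (Psme1), and pre-weaning differences 0.023 (Psmb6), -0.045 (Psmb7) and -0.051 (Psme3). After a line on that share was removed, r was 0.14 for Psmb10 and Psme2 and 0.023 for Psmb8 and Psmb5. With values centred on group means, it was 0.045 for Psmb10 and Psme2. With averaged probes, interactions were -0.034 (Psmb7) and -0.13 (Psmb8), the post-weaning difference was -0.0029 (Psmb8), and pre-weaning differences were -0.024 (Psmb7), -0.0038 (Psmb8) and 0.033 (Psme4). With neqc the interaction of Psmb5 was 0.056.

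With mother's label as a random replicate block, pre-weaning differences were -0.0013 (Psmb7), 0.0018 (Psme1) and 0.0092 (Psme4), and 0 members passed the adjusted threshold in any comparison. With the 4 pairs as a fixed replicate block, post-weaning differences were -0.11 (Psmb8) and -0.035 (Psmb9). In the methods' t-test at an unadjusted p under 0.05, 0 of 45 members passed by post-weaning diet, beside 4.75% of all probes. By pre-weaning diet it was 1 of 45 (2.22%), beside 3.19%, and 0 passed after Benjamini-Hochberg adjustment.

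Without HH 10B and HL 10B, 1 pair passed, the median residual SD of the 5 was 0.19, and pre-weaning differences were 0.020 (Psmb6), -0.031 (Psmb7), 0.087 (Psme1), -0.036 (Psme3) and 0.0086 (Psme4). The r was -0.099 for Psmb8 and Psme2 and -0.053 for Psmb9 and Psmb6. Leaving out the 2 arrays farthest from the median gave the same r (-0.099 and -0.053). Without LL 6 as well, 1 pair passed, the SD was 0.19, pre-weaning differences were 0.025 (Psmb6), -0.037 (Psmb7), 0.070 (Psme1), -0.034 (Psme3) and 0.016 (Psme4), the post-weaning difference was -0.032 (Psmb9), and r was -0.019 for Psmb8 and Psmb9, -0.23 for Psmb8 and Psme2 and -0.13 for Psmb9 and Psme2.

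With each mouse left out in turn, 1 to 6 pairs passed (1 without HH 10B or without HL 10B) and the median residual SD of the 5 was 0.29 to 0.35. Their median difference was -0.074 to 0.064 (post-weaning), -0.039 to 0.047 (pre-weaning) and -0.087 to 0.28 (interaction). Post-weaning differences were -0.074 to 0.14 (Psmb8), -0.075 to 0.088 (Psmb9), -0.025 to 0.064 (Psme1) and -0.020 to 0.14 (Psme4). Pre-weaning ones were -0.039 to 0.047 (Psme1), -0.12 to 0.0058 (Psmb5), -0.094 to 0.015 (Psmb6), -0.050 to 0.057 (Psmb7), -0.051 to 0.078 (Psme3) and -0.046 to 0.093 (Psme4). Interactions were -0.15 to 0.28 (Psmb8), -0.035 to 0.29 (Psmb9), -0.087 to 0.30 (Psmb10), -0.15 to 0.14 (Psmb5), -0.17 to 0.096 (Psme3) and -0.11 to 0.21 (Psme4). The r was -0.019 to 0.19 for Psmb8 and Psme2, -0.20 to 0.050 for Psmb10 and Psme2 and -0.23 to 0.060 for Psmb8 and Psmb5.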
